A study of Mus musculus with 4 samples.

Results

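The transcripts described here are those of 10 genes that build autophagosomes or load cargo into them. They were chosen by name, with earlier results of these data known, and all 10 are among the 23936 gene rows of the expression table. Each passed the filter on low values (average FPKM of 1 or more), as did 8964 genes in all. The cells are G1ER, mouse erythroblasts without endogenous GATA1 that carry a fusion of GATA1 with the estrogen receptor, so that beta-estradiol starts their maturation. All cultures were grown in medium with erythropoietin and stem cell factor. The groups were Chd7-/- G1ER cells at 24 h of estradiol, the same knockout line at 0 h, wild-type G1ER cells at 24 h and wild-type cells at 0 h, with 1 ribosome-depleted RNA library in each. The labels call the treatment estradiol for every library, so the time was read from the sample titles, and they do not say whether the knockout line is 1 clone. The question was what the absence of CHD7, a chromatin remodeler of the chromodomain helicase family, does to erythroid maturation of these cells.

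In autophagy, the kinase ULK1 starts a double membrane, lipid signals recruit WIPI proteins to it, and ubiquitin-like proteins of the LC3 and GABARAP families are trimmed by ATG4 proteases and attached to the lipid. Cargo receptors bind both the cargo and these attached proteins, and the closed autophagosome then fuses with the lysosome. Maturing red cells use this route to remove organelles, and in mice BNIP3L, also called NIX, is required for clearing mitochondria from reticulocytes.

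Expression is given in FPKM, that is, fragments divided by transcript length and by a fragment total for the library. The sources used here do not say how that total was set. Ratios are of FPKM + 1 on the log2 scale, which understates the change of low genes. Each group being a single library, no difference has a replicate check or a test, and every statement is about these libraries. Steps between low FPKM values gave approximate depths of 15.7 M to 18.7 M fragments per library (M, mega). These are totals on the deposited scale and need not equal the mapped fragments. The ± after a ratio is the 95% half-width that counting at these depths allows, for a transcript of at most 2 kb. It does not cover the spread between cultures. Chd7 was listed at 0 FPKM in all 4 libraries, as were Hmgcs1 and Insig1, genes that most cells use, so a listed 0 here need not be an absence and the knockout labels could not be checked. The erythroid identity of the cells was plain, since the 8 listed erythroid markers, Hbb-b1 and Alas2 among them, summed to 16945 FPKM in the knockout and 10156 in wild type at 24 h, and to 1028 and 812 at 0 h. Mast cell and basophil markers summed to 3.86 FPKM in the knockout and 3.93 in wild type at 24 h, but to 46.1 and 20.3 at 0 h, with Mcpt8 at 0 throughout. The myeloid and megakaryocyte markers each summed to at most 11.4 FPKM in any library, and Mpo, Elane, Gp1bb, Ppbp and Vwf were listed at 0. Those that passed the filter were Cebpe, Lyz2, Gp9 and Pf4. Cebpe was at 9.42 FPKM in the knockout at 24 h and 6.55 at 0 h, and at 7.02 and 2.93 in wild type. In the same order Lyz2 was at 1.48, 4.78, 1.08 and 2.81. Gp9 was at 4.01, 2.00, 2.48 and 1.00, and Pf4 at 0.998, 2.91, 2.27 and 2.00. Whether such other cells were present, and their part in the results, was not tested, and in bulk RNA fewer cells of a type and less RNA per cell cannot be told apart. The knockout library at 0 h stood apart through the small nucleolar RNA Snord49a, at 544038 FPKM there and at 0 in the other 3 libraries.

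After estradiol the autophagy genes were mostly higher, and on the log2(FPKM + 1) scale Atg4d alone passed 2-fold. In plain FPKM Calcoco1, a low gene, was also 3.08-fold higher in the knockout, beside 2.99-fold for Atg4d. In the knockout 10 of 10 had a ratio above 0, where 37.4% of all tested genes did, and 1 reached 2-fold, against a background of 3.38%. Their median log2 ratio was 0.45, beside -0.12 over all tested genes. The 10 genes were chosen with earlier results of these data known, so the choice may have shaped such contrasts. In wild type 7 of 10 were above 0, where 35.9% of all genes were, and again 1 reached 2-fold, against 1.86%. The median there was 0.31, beside -0.11 over all genes. No member was at least 2-fold lower in either genotype, as were 3.64% of all genes in the knockout and 1.06% in wild type. At 1.5-fold, 4 members were higher in the knockout (background 8.4%), namely Atg4d, Map1lc3b, Gabarapl2 and Calcoco1, and Atg4d alone was higher in wild type (4.6%). None was lower by that factor, where 13.9% of all genes were in the knockout and 6.64% in wild type. Ratios are on the deposited scale. Scaling every library to an equal sum, as in TPM, moved the median of all genes to 0.83 in the knockout and 0.11 in wild type. All 10 members then passed 2-fold in the knockout, but so did 3043 of all 8964 tested genes, against 303 on the deposited scale. The members' median stood 0.69 and 0.43 above that of all genes, against 0.57 and 0.42 on the deposited scale. With an equal sum after small RNA and predicted loci were left out, Snord49a among them, the members' median was 0.43 in the knockout and 0.29 in wild type, beside -0.16 and -0.18 over all genes.

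**Figure D1:**
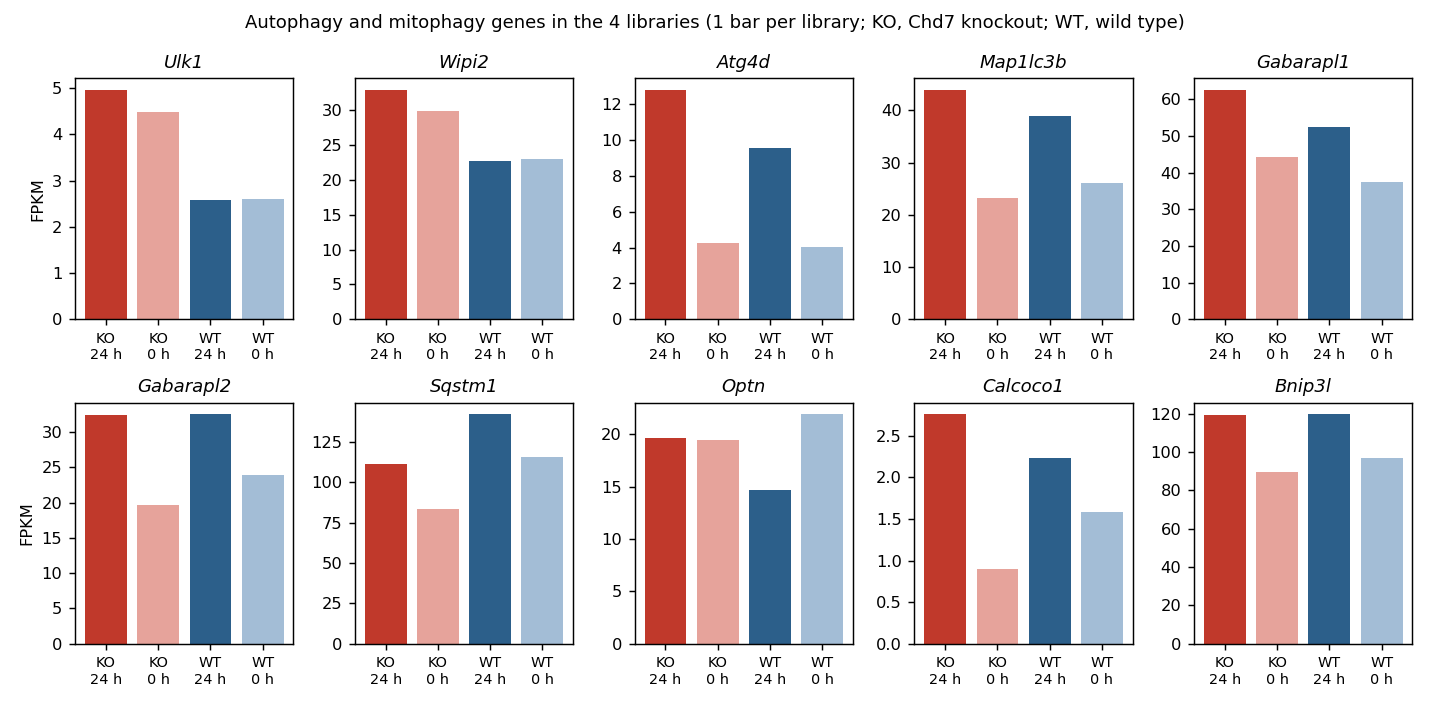
FPKM of the 10 genes, 1 bar per library, with the knockout at 24 h and 0 h left of wild type at 24 h and 0 h and an axis of its own for each gene. Atg4d reaches 12.8 FPKM in the knockout and 9.56 in wild type at 24 h, while Ulk1 and Wipi2 differ by genotype more than by time and Optn is lowest in wild type at 24 h.

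Ulk1, the kinase that opens the pathway, was one of the scarcest of the 10. It stood at 4.96 FPKM in the knockout at 24 h and 4.48 at 0 h, against 2.58 FPKM in wild type at 24 h and 2.60 at 0 h. Both knockout libraries thus exceeded both wild-type libraries, while the times within a genotype were close. The log2 ratio of knockout to wild type was 0.73 ± 0.29 at 24 h and 0.60 ± 0.31 at 0 h, and the value at 0 h became -0.01 with an equal sum per library, where the median of all genes was -0.78. The ratio of 24 h to 0 h was 0.12 ± 0.28 in the knockout and -0.01 ± 0.32 in wild type.

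Wipi2, which binds the lipid signal on the forming membrane and brings in the LC3 conjugation machinery, had the same shape at a higher level. Its FPKM was 32.9 in the knockout at 24 h and 29.8 at 0 h, against 22.7 in wild type at 24 h and 23.0 at 0 h. The ratio of knockout to wild type was 0.51 ± 0.13 at 24 h and 0.36 ± 0.14 at 0 h, and the value at 0 h became -0.41 with an equal sum per library. The responses were 0.14 ± 0.13 in the knockout and -0.02 ± 0.14 in wild type.

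Ulk1 and Wipi2 were the only pair of the 10 that lie on chromosome 5 (Ulk1 at chr5:110784489-110810120 and Wipi2 at chr5:142629533-142669672, RefSeq, GRCm38). The other 8 are spread over 7 chromosomes, with Atg4d at chr9:21265205-21274837, Map1lc3b at chr8:121590438-121598760, Gabarapl2 at chr8:111940703-111952915 and Gabarapl1 at chr6:129533192-129542331. Sqstm1 lies at chr11:50200152-50210820, Optn at chr2:5020521-5064399, Calcoco1 at chr15:102706777-102722178 and Bnip3l at chr14:66985238-67008877. The 533 tested genes of that chromosome, small RNA and predicted loci left out, had a median knockout to wild-type log2 ratio of 0.34 at 24 h and 0.40 at 0 h, against -0.11 and -0.09 for the 7479 genes of the other autosomes and X. Of the chromosome 5 genes, 90.6% were above 0 at 24 h and 95.5% at 0 h, beside 34.3% and 30.1% elsewhere.

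Relative to that chromosome median, Ulk1 was at 0.39 at 24 h and 0.20 at 0 h, and Wipi2 at 0.17 and -0.04. Within chromosome 5, 89.9% of the genes had a lower ratio than Ulk1 at 24 h and 89.7% at 0 h, while Wipi2 lay above 73.9% and 40.0% of them. Genes starting within 1 Mb showed the same offset. Of the 17 around Ulk1, 16 were higher in the knockout at 24 h and 16 at 0 h, and of the 15 around Wipi2, 14 and 15. The part of the chromosome in the values of Ulk1 and Wipi2 was not tested beyond these comparisons.

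**Figure D2:**
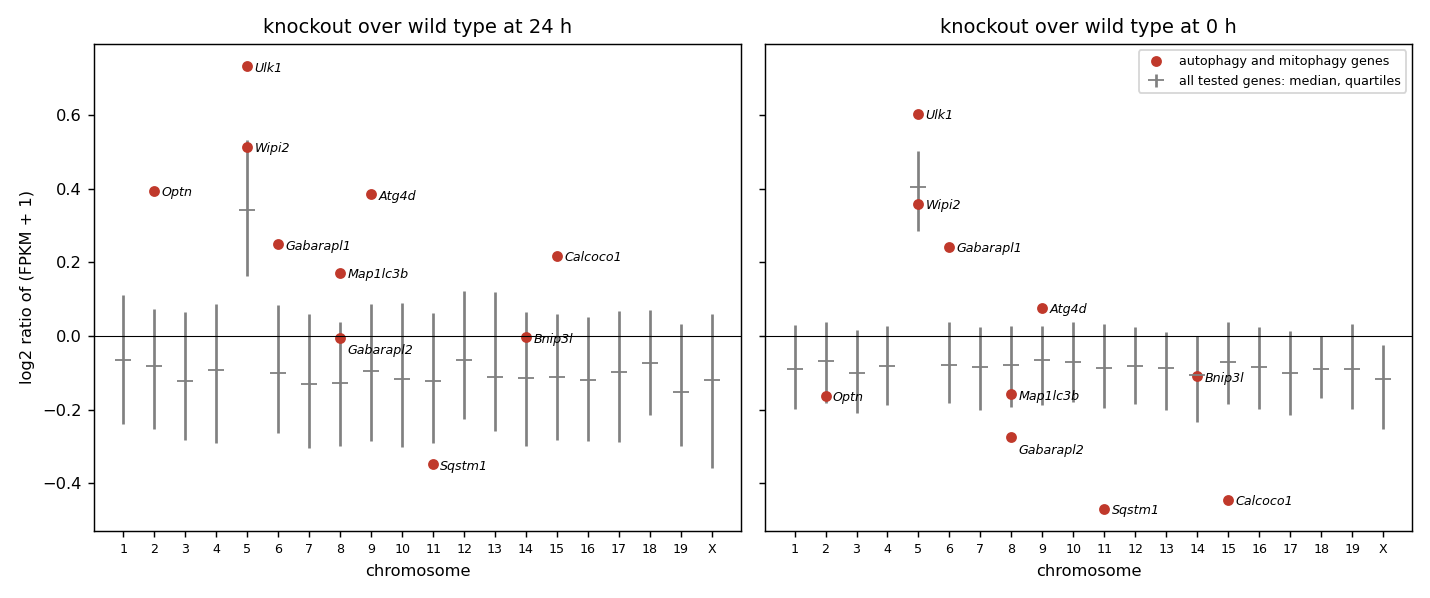
Log2 ratio of FPKM + 1, knockout over wild type, by chromosome at 24 h (left) and 0 h (right), with grey marks for the median and quartiles of all tested genes other than small RNA and predicted loci and red points for the 10 genes. Chromosome 5 has a median of 0.34 at 24 h and 0.40 at 0 h, and Ulk1 and Wipi2 lie on it, whereas with libraries scaled to an equal sum Ulk1 at 0 h is at -0.01 and Wipi2 at -0.41 against a median of all genes of -0.78.

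Atg4d, an ATG4 protease that trims LC3 and GABARAP proteins and can also release them from lipid, had the largest ratio of FPKM + 1 after estradiol of the 10 in both genotypes, though in plain FPKM Calcoco1 had the larger fold in the knockout. It stood at 12.8 FPKM in the knockout at 24 h and 4.28 at 0 h, and at 9.56 FPKM in wild type at 24 h and 4.01 at 0 h. Both libraries at 24 h exceeded both at 0 h by more than 2-fold. The log2 ratio of 24 h to 0 h was 1.38 ± 0.25 in the knockout and 1.08 ± 0.25 in wild type. The ratio of knockout to wild type was 0.38 ± 0.20 at 24 h and 0.08 ± 0.30 at 0 h.

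Exons of Atg4d share 1405 bases with those of Kri1 on the opposite strand, and the sources used here do not say whether fragments were assigned by strand. The Kri1 row stood at 20.4 FPKM in the knockout at 24 h and 22.4 at 0 h, and at 20.4 in wild type at 24 h and 24.6 at 0 h. On the deposited scale it was therefore not higher at 24 h as Atg4d was. Both other measured proteases of the family had smaller ratios. Atg4b was at 0.31 in the knockout and 0.27 in wild type, and Atg4a at 0.16 and 0.03.

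The promoter windows of Atg4d and Optn are shown because these genes had the most different responses to estradiol in wild type. Each runs from 250 bases before the transcript start that the RefSeq promoter table uses to 50 bases after it (RefSeq, GRCm38.p6, chr9:21265035-21265334 on the plus strand and chr2:5064068-5064367 on the minus strand), 5′ to 3′ on the strand of the gene, and capitals mark any match to the 4 short motifs described after the sequences. That start is not the outer end of the gene record given above: it lies 80 bases inside the record for Atg4d and 282 bases inside it for Optn, whose whole window is thus within the record.
Atg4d: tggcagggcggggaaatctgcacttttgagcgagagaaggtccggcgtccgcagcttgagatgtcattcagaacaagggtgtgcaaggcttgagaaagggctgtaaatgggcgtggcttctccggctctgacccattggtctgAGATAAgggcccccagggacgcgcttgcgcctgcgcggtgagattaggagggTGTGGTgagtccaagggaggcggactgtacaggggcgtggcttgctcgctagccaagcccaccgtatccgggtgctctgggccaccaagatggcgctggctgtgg
Optn: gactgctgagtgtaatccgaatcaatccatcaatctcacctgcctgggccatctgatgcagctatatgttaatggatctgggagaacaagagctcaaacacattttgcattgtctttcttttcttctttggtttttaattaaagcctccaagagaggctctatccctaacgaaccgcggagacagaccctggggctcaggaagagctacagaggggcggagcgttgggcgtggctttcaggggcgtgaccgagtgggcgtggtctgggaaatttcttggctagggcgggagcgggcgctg

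The table of promoters holds 9 of the 10 genes, all but Bnip3l. On either strand, AGATAA, a form of the GATA motif, was in 1 of these 9 windows, that of Atg4d, where it begins 107 bases before the start used for that window, and in 11.2% of all 32851 windows. TGTGGT, a form of the RUNX motif, was in 3 of 9, those of Atg4d, Sqstm1 and Calcoco1, and in 16.8% of all windows. CACGTG, an E-box that MiT/TFE factors bind, was in 0 of 9 (7.15% of all windows), as was GTAAACA, a FOXO motif (3.65%). None of these motifs overlaps another in the windows shown. A match is a description of these letters and not a bound site.

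The LC3 and GABARAP genes, which encode the proteins that ATG4 trims, were higher at 24 h in both genotypes. Map1lc3b, which encodes LC3B, stood at 43.9 FPKM in the knockout at 24 h and 23.2 at 0 h, and at 38.9 FPKM in wild type at 24 h and 26.0 at 0 h. Its response was 0.89 ± 0.14 in the knockout and 0.56 ± 0.14 in wild type. The library of the knockout at 24 h was the highest of the 4 and that of the knockout at 0 h the lowest.

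Gabarapl1 stood at 62.6 FPKM in the knockout at 24 h and 44.4 at 0 h, and at 52.5 FPKM in wild type at 24 h and 37.3 at 0 h. Its responses were nearly equal, at 0.49 ± 0.19 in the knockout and 0.48 ± 0.20 in wild type. Its exons share 570 bases with those of 1700101I11Rik on the opposite strand, so reads of these genes cannot be told apart without strand. Gabarapl2 was at 32.4 FPKM in the knockout at 24 h and 19.6 at 0 h, and at 32.5 FPKM in wild type at 24 h and 24.0 at 0 h. The genotypes therefore met at 24 h, and the larger response of the knockout (0.70 ± 0.16, against 0.42 ± 0.15 in wild type) came with a lower value at 0 h.

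The remaining genes of the family had the same direction. Gabarap, the founding GABARAP gene, was at 91.6 FPKM in the knockout at 24 h and 48.8 at 0 h, and at 72.3 in wild type at 24 h and 44.6 at 0 h. Map1lc3a, which encodes LC3A, was at 5.49 and 1.83 FPKM in the knockout and 2.61 and 1.24 in wild type at the same times. Summed over its 5 genes, on the FPKM scale, the family stood at 236 in the knockout and 199 in wild type at 24 h, and at 138 and 133 at 0 h. These genes resemble each other in sequence, and the sources used here do not say how fragments that map to several places were treated.

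Of the cargo receptors, Sqstm1, which encodes the ubiquitin-binding receptor p62, was the most abundant. Its FPKM was 111 in the knockout at 24 h and 83.4 at 0 h, against 142 in wild type at 24 h and 116 at 0 h. It was thus lower in the knockout at both times, by a log2 ratio of -0.35 ± 0.07 at 24 h and -0.47 ± 0.08 at 0 h, while its responses were 0.41 ± 0.08 in the knockout and 0.29 ± 0.07 in wild type. Exons of Sqstm1 share 580 bases with those of Mrnip on the opposite strand.

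Optn encodes optineurin, a receptor for ubiquitin-marked mitochondria and bacteria, and was the only one of the 10 with a lower value at 24 h beyond the counting interval. It stood at 14.7 FPKM in wild type at 24 h and 21.9 at 0 h, a log2 ratio of -0.54 ± 0.16. In the knockout it was at 19.7 FPKM at 24 h and 19.5 at 0 h, a ratio of 0.01 ± 0.16. On the deposited scale the wild-type library at 24 h was the lowest of the 4. The difference of the responses, knockout minus wild type, was 0.56 ± 0.23.

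Calcoco1, a relative of the receptor NDP52 that in mammalian cells serves in autophagy of the endoplasmic reticulum, was the scarcest of the 10. It stood at 2.76 FPKM in the knockout at 24 h and 0.896 at 0 h, and at 2.23 FPKM in wild type at 24 h and 1.58 at 0 h. The knockout libraries held both the highest and the lowest value. Its response was 0.99 ± 0.35 in the knockout and 0.32 ± 0.34 in wild type, and the difference was 0.66 ± 0.49. With a pseudocount of 0.1 FPKM that difference is 1.05, and with 5 FPKM it is 0.26.

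Bnip3l, the mitophagy receptor of maturing red cells, was abundant before estradiol and higher after it in both genotypes. Its FPKM was 119 in the knockout at 24 h and 89.8 at 0 h, and 119.7 in wild type at 24 h and 96.9 at 0 h. The response was 0.41 ± 0.07 in the knockout and 0.30 ± 0.07 in wild type, with 87.1% and 88.3% of all tested genes below these ratios. At 24 h the genotypes differed by -0.00 ± 0.06. Among all 8964 tested genes, 92.5% had a lower mean FPKM.

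**Figure D3:**
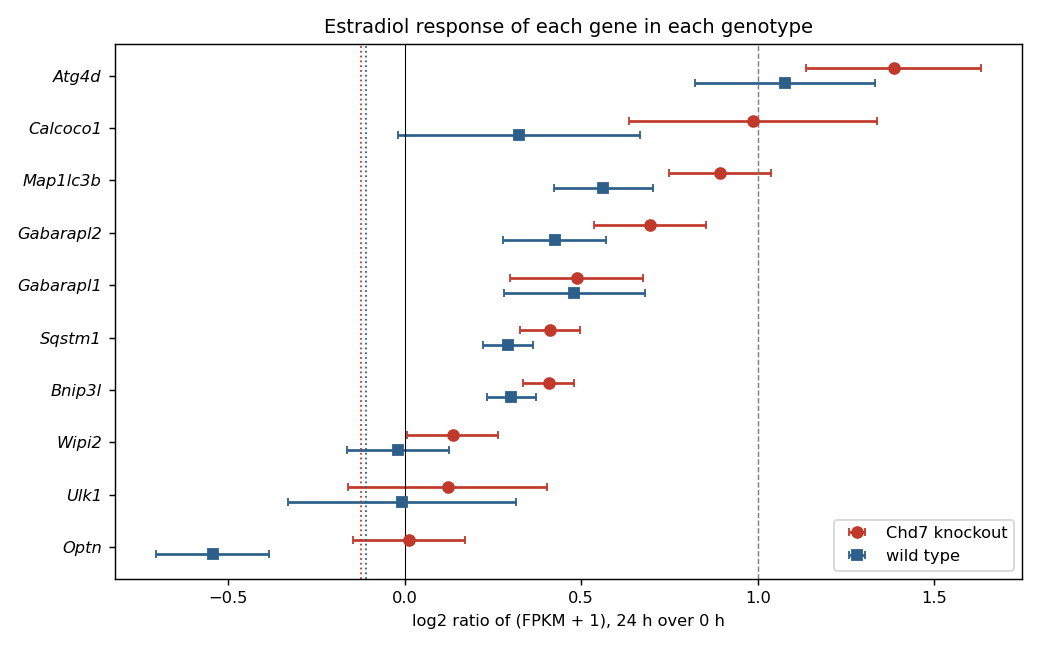
Log2 ratio of FPKM + 1 at 24 h over 0 h for the 10 genes, with the knockout as red circles above wild type as blue squares and bars for the 95% counting half-width. Dotted lines mark the medians of all tested genes (-0.12 in the knockout and -0.11 in wild type) and the dashed line 2-fold; Atg4d has the largest ratio in both genotypes, and Optn is at 0.01 in the knockout and -0.54 in wild type.

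The difference of the responses, knockout minus wild type, was above 0 for 10 of 10 genes, beside 46.3% of all tested genes. Its median was 0.21, beside -0.02 over all genes. The values ran from 0.01 for Gabarapl1 to 0.66 for Calcoco1. For 6 of the 10 they exceeded the counting interval, namely Map1lc3b, Gabarapl2, Sqstm1, Optn, Calcoco1 and Bnip3l. Sqstm1 (0.12 ± 0.11) and Bnip3l (0.11 ± 0.10), the most abundant of the 10, did so narrowly. That interval narrows with abundance and was computed for the 10 genes only, so the share of all genes past it is not known. None reached a difference of 1, as did 0.602% of all genes upward and 0.625% downward, and Calcoco1 was the 1 member past 1.5-fold upward (2.96%), with 0 downward (2.8%). Among 55 other autophagy genes, described below, 40 had a difference above 0. Here too the choice of the 10 genes may have shaped the contrast. At 24 h the ratio of knockout to wild type was also above 0 for 7 of the 8 erythroid markers, with a median of 0.72 and Epor below 0 at -0.06, and the part of the stage of maturation was not tested.

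Between genotypes at a fixed time the genes were split. At 24 h, 7 of 10 were above 0 in the ratio of knockout to wild type (38.1% of all tested genes), with a median of 0.23 beside -0.09 over all genes. At 0 h, 4 of 10 were (34.6%), namely Ulk1, Wipi2, Atg4d and Gabarapl1, with a median of -0.13 beside -0.07. No member reached 2-fold at either time, where 0.714% of all genes were higher and 1.14% lower in the knockout at 24 h, and 0.435% and 0.647% at 0 h. On the log2(FPKM + 1) scale Ulk1 was the 1 member past 1.5-fold at both times, higher in the knockout (3.51% of genes at 24 h and 1.83% at 0 h). None was lower by that factor on this scale (5.02% and 2.31%). In plain FPKM Calcoco1, a low gene, stood in the knockout at 0.57 of its wild-type value at 0 h. Without the pair on chromosome 5 the median of the other 8 was 0.19 at 24 h and -0.16 at 0 h. Scaling to an equal sum per library moved the median of all genes to -0.78 at 0 h, and with it Ulk1, Wipi2, Atg4d and Gabarapl1 were also below 0, at -0.01, -0.41, -0.54 and -0.53, all of them above that shifted median.

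The rest of the pathway was read from a list of 62 other autophagy genes, also chosen with earlier results of these data known. Of these, 55 passed the filter. In the knockout 2 of 55 were at least 2-fold higher after estradiol and 0 lower, where 3.38% and 3.64% of all genes were, so the first count is near the background. At 1.5-fold 12 were higher (8.4% of all genes) and 3 lower (13.9%), namely Wdr45b, Phb2 and Vamp8. The median was 0.17, and 37 of 55 were above 0 (37.4% of all genes). In wild type 0 were past 2-fold in either direction, near the background of 1.86% higher and 1.06% lower. At 1.5-fold 5 were higher (Map1lc3a, Gabarap, Ncoa4, Bnip3 and Vps18) and 0 lower, where 4.6% and 6.64% of all genes were. The median was 0.04, and 31 of 55 were above 0 (35.9% of all genes). The genes past 2-fold in the knockout were Ncoa4, the receptor that delivers ferritin to autophagosomes, and Map1lc3a. Ncoa4 stood at 109 FPKM in the knockout at 24 h and 42.5 at 0 h, and at 102 in wild type at 24 h and 51.1 at 0 h.

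The pathway was also grouped by role, with the 10 genes counted in; at 1.5-fold 8.4% of all genes were higher in the knockout and 4.6% in wild type, and differences between these small groups were not tested. The LC3 and GABARAP family had 4 of 5 genes past 1.5-fold in the knockout and 2 of 5 in wild type, with medians of 0.89 and 0.56. Cargo receptors had 3 of 7 measured genes past 1.5-fold in the knockout (Calcoco1, Nbr1 and Ncoa4) and 1 of 7 in wild type (Ncoa4), with medians of 0.41 and 0.29, and Nbr1, which encodes a receptor related to p62, was at 0.64 and 0.42. Of the 7 measured genes of the class III lipid kinase complex, which makes the signal that WIPI proteins read, 0 passed 1.5-fold in either genotype, which at so few genes is near the background. Becn1, which encodes its beclin 1 subunit, was at 0.26 in the knockout and 0.18 in wild type. The 6 measured genes that conjugate LC3 and ATG12 also had 0 past 1.5-fold, again near the background, with Atg12 at 0.39 and 0.11 and Atg3 at -0.35 and -0.22.

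Among membrane supply genes, Atg9a, which encodes the membrane protein of the vesicles that seed autophagosomes, was at 0.82 in the knockout and 0.54 in wild type, and Atg2a, a lipid transfer protein gene, at 0.72 and 0.22. Wipi1, the relative of Wipi2, was at 0.91 and 0.52, unlike Wipi2 itself (0.14 and -0.02). Wdr45b, another of this family, was at -0.63 and -0.45. Among genes for fusion with the lysosome, Vps18, of the tethering complexes, was at 0.81 and 0.59, and Vamp8, a SNARE gene, at -0.68 and -0.35.

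The mitophagy list, Bnip3l included, went both ways, with 3 of 10 measured genes higher by 1.5-fold (Bnip3, Pink1 and Tbk1) and 1 lower (Phb2) in the knockout, where 8.4% and 13.9% of all genes were, and Bnip3 alone higher in wild type (4.6%). Bnip3, the close relative of Bnip3l, was at 208.5 FPKM in the knockout at 24 h and 135 at 0 h, and at 269.8 in wild type at 24 h and 166 at 0 h. Pink1, the kinase that marks damaged mitochondria, was at 14.5 FPKM in the knockout at 24 h and 6.97 at 0 h, and at 10.5 in wild type at 24 h and 6.84 at 0 h. Phb2, which encodes an inner membrane protein that binds LC3, was at 223 and 349 FPKM in the knockout and 303 and 356 in wild type at the same times. The mitochondrial outer membrane and dynamics list had a median response of -0.34 in the knockout and -0.19 in wild type, and with an equal sum per library of 0.67 and 0.05, below the medians of all genes of 0.83 and 0.11. Fis1, a fission gene on chromosome 5, went the other way, at 0.95 and 0.80, and Tomm70a, an import receptor gene, was at -0.61 and -0.57.

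Of 5 measured transcription factors that are known to act on autophagy genes, Foxo3 and Tfe3 were higher after estradiol and Tfeb was not. Foxo4 was lower, at -0.37 in the knockout and -0.34 in wild type, and Zkscan3 was at 0.12 and -0.06. The median of the 5 was 0.12 in the knockout and -0.06 in wild type. With an equal sum per library the ratio of Tfeb was 0.29 in the knockout and 0.14 in wild type. That of Foxo4 in the knockout was then 0.63, and that of Zkscan3 in wild type 0.17. Foxo3 stood at 39.7 FPKM in the knockout at 24 h and 17.7 at 0 h, and at 31.8 in wild type at 24 h and 18.8 at 0 h. Tfe3 was at 13.0 and 6.60 FPKM in the knockout and 12.3 and 7.94 in wild type at the same times. Tfeb was at 3.03 and 4.98 FPKM in the knockout and 6.18 and 6.57 in wild type, so that it was lowest in the knockout at 24 h.

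Lysosomal genes had a median response of 0.37 in the knockout and 0.18 in wild type. In the knockout 2 of 15 measured genes passed 2-fold upward, where 3.38% of all genes did. They were Ctsb, a cathepsin gene (1.05, against 0.70 in wild type), and Atp6v0d1, a proton pump subunit gene (1.04, against 0.58). Ctsl, another cathepsin gene, was lower in the knockout at both times. It stood at 0.699 FPKM at 24 h and 0.749 at 0 h there, against 3.58 and 5.23 in wild type. Genes of mTORC1 and AMPK, the kinases that restrain and activate ULK1, had medians of -0.09 in the knockout and -0.06 in wild type, close to those of all genes (-0.12 and -0.11). The exception past 2-fold was Prkab1, an AMPK subunit gene on chromosome 5, at 1.08 in the knockout and 0.45 in wild type.

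**Figure D4:**
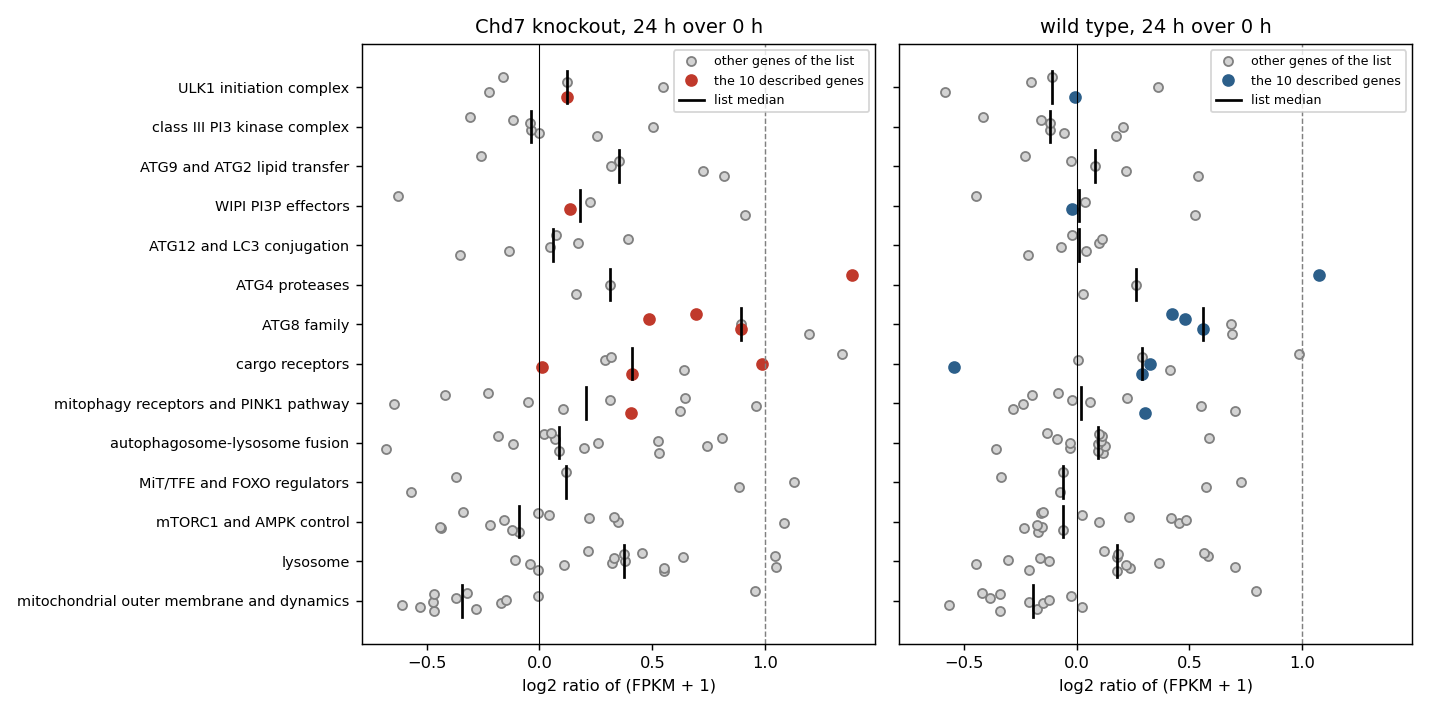
Log2 ratio of FPKM + 1 at 24 h over 0 h for the measured genes of each list, in the knockout (left) and wild type (right), with the 10 genes in colour, the other genes in grey, a bar at each list median and a dashed line at 2-fold. The LC3 and GABARAP family has medians of 0.89 in the knockout and 0.56 in wild type, and the mitochondrial outer membrane list of -0.34 and -0.19, or of 0.67 and 0.05 with an equal sum per library.

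Likeness of pattern was measured as the distance between log2 values centred on their mean over the 4 libraries. It was taken among 6418 genes that averaged 5 FPKM or more, small RNA and predicted loci left out. The 3 genes nearest to Ulk1 were Trrap (0.08), Lrrc8b (0.09) and Atp10d (0.10), all on chromosome 5. Nearest to Optn were Pi4k2b (0.04), which also lies on chromosome 5, and Rnpc3 and Zfp825 (0.07 each), which do not. For Calcoco1 they were Renbp (0.07), Cdkn3 (0.10) and Snrpn (0.11). Of the 10 genes, Map1lc3b was the closest at rank 38 among those compared, which leave out Ulk1 at a mean of 3.66 FPKM. Calcoco1 averaged 1.87 FPKM, so the added 1 FPKM shrinks its ratios more than those of the genes compared. In plain FPKM Calcoco1 was 3.08-fold higher after estradiol in the knockout, while Renbp went from 10.4 to 21.5. Nearest to Bnip3l were Rexo2 (0.02), Tfdp2 (0.03) and Rpl28 (0.04). With 4 points per gene such distances describe the libraries only.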

How the data were processed

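The authors deposited FPKM, 1 value per gene symbol and library, and per the submitters' processing notes the build was GRCm38 and the tools were Cufflinks 2.2.1, TopHat2 2.0.11, cutadapt and FastQC. The sources used here do not give the annotation, the strand setting, the treatment of multi-mapped reads or the scaling between libraries. A repeated header row was dropped.

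Ratios are of FPKM + 1 for the 8964 genes that averaged 1 FPKM or more, in 5 comparisons; a gene counts as higher or lower at 2-fold (log2 ratio of 1). With 1 library per group no p-value was computed, and a simulated table with known fold changes was used to check the code. Depth was sought as the FPKM step worth 1 fragment in genes with 1 transcript of at least 3 kb, less 200 bases; 55.6% to 65.5% of the low values were within 0.1 of a whole fragment, where 20% would be by chance, so depths are approximate. Counting intervals cover counting error only.

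The genes and lists were chosen with earlier results of these data known. All 10 genes are named, with up to 2 highest and 2 lowest genes of each list per comparison at 5 FPKM or more, and the 3 nearest in pattern for 4 genes. Genes behind small counts (such as Tbk1), Epor, Zkscan3 and the named myeloid and megakaryocyte markers are named after their values were seen. Small RNA, predicted and Riken-named loci are called small or predicted. Positions come from RefSeq, and lengths and exon overlaps from GENCODE M21. Python 3.11.15, numpy 2.4.6, pandas 2.3.3 and matplotlib 3.10.9 were used. Pseudocounts of 0.1 and 5 FPKM, other filters, scalings and a 1.5-fold threshold were tried as alternatives, and leaving out chromosome 5 members and subtracting chromosome medians were added after seeing the data. The sample titles gave every library its group, and no deposited value column was left out. The lymphoid marker list is not reported here.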

Additional observations from a re-analysis of the deposited data

Results flagged for a closer look

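For 5 genes the genotypes, or the times, gave ratios of opposite sign. Each rests on 1 library per group, and the difference was not tested. Optn had a response of 0.01 in the knockout and -0.54 in wild type, and its ratio of knockout to wild type was 0.39 at 24 h and -0.16 at 0 h, a difference of 0.56 ± 0.23 either way. Calcoco1 was at 0.22 in the ratio of knockout to wild type at 24 h and -0.44 at 0 h, a difference of 0.66 ± 0.49. Map1lc3b was at 0.17 at 24 h and -0.16 at 0 h, a difference of 0.33 ± 0.20. For these 3 genes 1 of the opposed ratios was itself within the counting interval. These were the knockout response of Optn (0.01 ± 0.16), Calcoco1 at 24 h (0.22 ± 0.32) and Map1lc3b at 0 h (-0.16 ± 0.16). The sign of each such ratio is therefore not settled by counting. Ulk1 had a response of 0.12 in the knockout and -0.01 in wild type (difference 0.13 ± 0.43), and Wipi2 of 0.14 and -0.02 (0.16 ± 0.19); both differences are within the counting interval.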

How the results depend on the processing

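The counts of members past 2-fold were the same without the pair on chromosome 5 (chosen after seeing the data), without any filter, and with a filter at an average of 5 FPKM, which drops Ulk1 and Calcoco1. They depended on pseudocount, scaling and threshold. For the knockout response 1 member was higher, beside 303 of all 8964 tested genes. A pseudocount of 0.1 FPKM gave 2 members (407 genes) and 5 FPKM gave 0 (180). An equal sum per library (TPM) gave 10 (3043), and that sum after small and predicted loci are left out gave 2 (309 of 8399). Median-centred libraries gave 3 (384), upper-quartile scaling 3 (376) and the 1.5-fold threshold 4 (753). For the wild-type response the 1 became 0 with a pseudocount of 5 FPKM, where 95 genes were higher, against 167. Between genotypes at 0 h, 2 members were lower with TPM, against 0, where 1111 genes were lower, against 58. The 1.5-fold threshold gave 1 member higher at 0 h (164 genes) and 1 at 24 h (315 genes), against 0 each. For the difference of responses, 0 members (54 genes) became 1 with a pseudocount of 0.1 FPKM (113), 4 with TPM (1327) and 1 at 1.5-fold (265). TPM moved the median of all genes to 0.83 in the knockout response, where the members' median was 1.52, and to 0.11 in the wild-type response. With it 3043 genes were higher and 39 lower in the knockout response, against 303 and 326. Relative to the median of all genes, the members' median in the knockout response ran from 0.45 with no filter to 0.69 with TPM, and in wild type from 0.31 with no filter to 0.49 with a pseudocount of 0.1 FPKM. Responses of Ulk1 and Wipi2 in wild type were slightly above 0 with median-centred (0.08 and 0.07), upper-quartile (0.05 each) and TPM scaling (0.17 and 0.21), and that of Optn in the knockout was -0.01 without small and predicted loci. Gabarapl2 and Bnip3l at 24 h, at -0.01 and -0.00 between genotypes, were above 0 under each rescaling. The causes were not tested. No paired analysis was possible because each group holds 1 library. Differences under the counting half-width were not detectable at this depth.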
